A study of Mus musculus with 6 samples.

Results

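The genes described here encode the subunits of heterotrimeric G proteins, read in tuft cells sorted from the ileum of mice. The members were chosen by name, as every alpha, beta and gamma subunit gene on a list of 33 (16 alpha, 5 beta and 12 gamma), and all 33 were among the 23420 genes of the deposited expression table. The 6 libraries form 1 group, and each was labelled as a separate mouse replicate of strain C57BL/6J carrying the Gfi1b-eGFP reporter. According to the methods, the mice were Gfi1b-eGFP/+ heterozygotes, 6 to 12 weeks old, with green fluorescent protein placed at the locus of Gfi1b, a transcription factor gene that marks tuft cells within the epithelium but is also active in blood cell lineages. Cells were taken as live (propidium iodide-negative) CD45-negative cells with EpCam and GFP, and their RNA was amplified by a modified SMART-Seq2 protocol. The labels also list a 3' polyA and a 10X preparation for every library, which the methods do not describe. Neither the remaining epithelium nor any mutant was among the libraries analysed here. The values thus give the transcript make-up of the sorted libraries, which also held markers of other cell types. They do not give the difference of tuft cells from other cells.

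A heterotrimeric G protein sits on the inner face of the plasma membrane and passes the signal of a receptor to enzymes and channels. Its alpha subunit binds guanine nucleotide and names the family (Gs raises cyclic AMP, Gi/o lowers it, Gq activates phospholipase C beta, and G12/13 acts on the cytoskeleton), while the beta and gamma subunits form a tight dimer that signals by itself once released. Taste cells of the tongue use gustducin, in which the alpha subunit alpha-gustducin (Gnat3) is known to be joined to Gng13 and to Gnb3 or Gnb1. The dimer released from gustducin activates the phospholipase Plcb2, and tuft cells carry the same chemosensory parts.

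Most alpha subunits of the Gi/o family end alike, and this end is where receptors touch them and where pertussis toxin acts on a cysteine. The last 33 coding bases before the stop codon are given for Gnat3, for its closest relative in this stretch and for the most abundant alpha subunits, since they show how near these paralogs are at the end that defines coupling. The fourth codon from the end is in capitals (longest coding sequence of each gene in GENCODE M21, GRCm38, 5′ to 3′ along the gene).
Gnat3, chr5:18019633-18019665, plus strand: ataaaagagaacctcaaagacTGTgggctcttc
Gnat1, chr9:107675891-107675923, minus strand: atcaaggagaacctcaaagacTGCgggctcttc
Gnai2, chr9:107615638-107615670, minus strand: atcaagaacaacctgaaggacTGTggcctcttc
Gnai3, chr3:108109425-108109457, minus strand: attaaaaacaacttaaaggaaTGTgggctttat
Gnas, chr2:174346353-174346385, plus strand: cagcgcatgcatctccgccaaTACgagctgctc
Gna11, chr10:81530798-81530830, minus strand: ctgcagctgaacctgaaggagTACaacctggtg
A cysteine codon stood at this place in 7 of the 16 alpha subunits (Gnat1, Gnat2, Gnat3, Gnai1, Gnai2, Gnai3 and Gnao1). Gnaz, which is grouped with the Gi/o family, did not have it. Of the 33 bases of Gnat3, 30 were the same in Gnat1, 29 in Gnat2, 28 in Gnai1, 26 in Gnai2 and 23 in Gnai3. The Gi/o members Gnao1 and Gnaz had 20 each, near the 19 of Gna12 outside the family. Gnaq had 17, Gna11 16, Gna13 15, Gnas and Gna14 13 each and Gna15 12. Despite the likeness of some ends, only the GENCODE transcripts of Gnaq and Gnb4 shared any run of 50 bases with another member. These had 3 such windows in common.

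Gamma subunits are anchored in the membrane by a lipid added to a cysteine in the CAAX box, the last 4 codons. The same 33-base stretch is given for the 4 most abundant gamma subunits, again with the fourth codon from the end in capitals.
Gng13, chr17:25718997-25719029, plus strand: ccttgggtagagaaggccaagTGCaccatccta
Gng5, chr3:146503350-146503382, plus strand: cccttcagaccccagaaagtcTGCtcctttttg
Gng12, chr6:67017554-67017586, plus strand: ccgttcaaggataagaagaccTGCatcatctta
Gngt2, chr11:95845573-95845605, plus strand: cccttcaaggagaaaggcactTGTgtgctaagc
All 12 gamma subunits had the cysteine codon at this place. The last codon was for leucine in 9, Gng13, Gng5 and Gng12 among them, which is known to favour a geranylgeranyl lipid. It was for serine in 3 (Gng11, Gngt1 and Gngt2), which is known to favour a farnesyl lipid.

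Levels are in TPM, a unit in which a gene's reads are divided by its length and scaled to a library total of 1000000. Genes were compared with one another on this per-length scale. Read numbers cannot be recovered from TPM, the depth of each library is thus unknown, and a gene listed at 0 may have been missed. Members were tested against each other within each library, on the log2(TPM + 1) scale, by exact sign-flip permutation (two-sided). With 6 libraries p cannot fall below 0.03125, and adjusted p stands for Benjamini-Hochberg values. The test measures the spread between these 6 libraries. Between 13044 and 13308 genes per library were listed above 0, and ribosomal RNA precursor (Rn45s) took 23.1% to 32.6% of the TPM. All 12 tuft cell markers found in the table were at 1 TPM or more in every library, with a sum of 6478 to 11215 TPM. Marker lists of other cell types were also read in every library. Their sums were 3571 to 21441 TPM for Paneth cells, 1053 to 5118 TPM for goblet cells, 7581 to 15598 TPM for enterocytes, 379 to 537 TPM for enteroendocrine cells, 317 to 788 TPM for stem and crypt cells and 49.0 to 273.8 TPM for leukocytes. In the enteroendocrine sum, Sct alone was at 331 to 474 TPM, and no other of the 9 markers reached 1 TPM in every library. The Paneth sum was above the tuft sum in replicates 4 to 6 (21441, 13261 and 7260 against 7553, 6617 and 6478 TPM). It was below the tuft sum in replicates 1 to 3. The enterocyte sum was above the tuft sum in every library, and the lists differ in their number of genes. The part of these other cell types in the values below was not tested, so levels cannot be assigned to tuft cells alone. In such bulk libraries fewer cells of a type and less RNA per cell cannot be told apart.

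The beta and gamma classes were each made up mostly of a few subunits, while the alpha class was spread more widely. The 3 most abundant members of a library took 97.5% to 100% of its beta, 91.8% to 96.0% of its gamma and 65.2% to 76.2% of its alpha subunit TPM. These shares depend on class size (5 beta, 12 gamma and 16 alpha subunits). The 100% was fixed in replicates 4 and 5, where no more than 3 beta subunits were above 0. Of the 33 members, 19 (57.6%) were at 1 TPM or more in every library, against 39.9% of all genes of the table. By class these were 11 of 16 alpha, 2 of 5 beta and 6 of 12 gamma subunits. Another 10 members were above 0 in some libraries but not in all, and 4 (Gnat1, Gnat2, Gng4 and Gng8) were listed at 0 in all 6. The 33 members summed to between 2221 and 3172 TPM per library, and their levels ranked alike in all libraries (Spearman correlation across the members of 0.885 to 0.967 between pairs of libraries, against 0.915 to 0.937 across all genes).

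**Figure D1:**
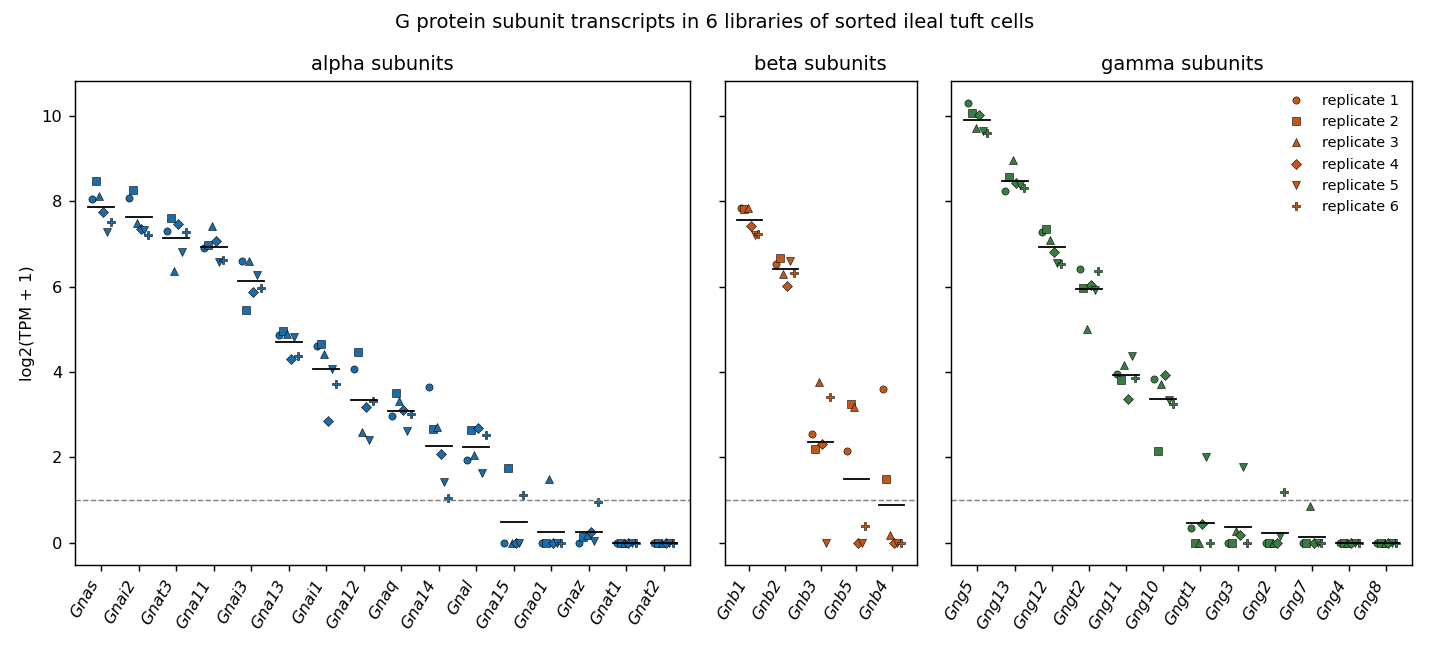
Level of each subunit gene in the 6 libraries, as log2(TPM + 1), ordered within each class by mean TPM; each symbol is a library, the black bar is the mean and the dashed line marks 1 TPM. Beta subunits fall from Gnb2 at 63.9 to 101 TPM straight to Gnb3 at 0 to 12.5 TPM, while gamma subunits are led by Gng5 and Gng13 in every library.

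Within the Gi/o family, 4 of 8 alpha subunits were at 1 TPM or more in every library. Gnat3 (ENSMUSG00000028777.8; chr5:17962549-18019834, plus strand) was at 157, 194, 81.8, 177, 111 and 155 TPM in replicates 1 to 6, and took 9.27% to 22.3% of the alpha subunit TPM (mean 17.3% ± 4.80, SD, n = 6). Its rank among the alpha subunits was 2 in replicates 4 and 6, 3 in replicates 1, 2 and 5, and 5 in replicate 3, where it was lowest. Its only GENCODE transcript shared no run of 50 bases with any other gene. The inhibitory subunit Gnai2, which is found in most cell types, was at 270.4, 308, 180.1, 162, 161 and 148 TPM. Gnat3 was below it in 4 libraries and above it in replicates 4 and 6. The difference was within the spread (Gnat3 minus Gnai2, -0.48 ± 0.49 on the log2(TPM + 1) scale, SD, n = 6, exact sign-flip test, adjusted p = 0.139). Gnai3, another widely found inhibitory subunit, was at 95.8, 42.7, 95.7, 57.4, 77.0 and 61.5 TPM. Gnat3 was above Gnai3 in 5 of 6 libraries, the exception being replicate 3. The difference of 1.02 ± 0.85 did not pass the test (exact sign-flip test, n = 6, adjusted p = 0.0721). Gnai1 was lower, at 6.29 to 24.1 TPM (median 18.2), and Gnat3 exceeded it in 6 of 6 libraries by 3.08 ± 0.91 (exact sign-flip test, n = 6, adjusted p = 0.0375).

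The other Gi/o members were at or near 0. The rod and cone transducins Gnat1 and Gnat2, the closest relatives of Gnat3, were listed at 0 in every library. Gnao1, the main alpha subunit of neurons, was listed at 1.82 TPM in replicate 3 and at 0 in the others. Gnaz, found in neurons and platelets, ranged from 0 to 0.94 TPM.

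Gnas, the stimulatory subunit of most tissues, had the highest mean of all alpha subunits. It was at 265, 355, 279.6, 215, 154 and 182 TPM. Gnat3 was below it in 6 of 6 libraries (Gnat3 minus Gnas, -0.72 ± 0.57 on the log2(TPM + 1) scale, SD, n = 6, exact sign-flip test, adjusted p = 0.0375). The gap was widest in replicate 3, at a Gnas to Gnat3 ratio of TPM of 3.42, and was 1.17 to 1.83 in the others. Transcripts antisense to Gnas (Nespas and Gm20721) overlap parts of it, and 18.6% of its 50-base windows were found in another gene. Gnal, the stimulatory subunit of olfactory neurons, stayed at 2.10 to 5.49 TPM. Part of Gnal overlaps Mppe1 on the opposite strand (7.63% of exonic bases), a gene at a higher mean of 13.2 TPM.

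In the Gq family, which activates phospholipase C beta, Gna11 was above its 3 relatives in every library. It was at 118, 125, 171, 134.6, 94.1 and 97.4 TPM. Its difference from Gnat3 was within the spread (Gnat3 minus Gna11, 0.21 ± 0.64, Gnat3 higher in 5 of 6 libraries, exact sign-flip test, n = 6, adjusted p = 0.469). Gnaq, its near relative that is common in other tissues, was at 5.14 to 10.4 TPM, so that Gna11 exceeded it 12.1- to 19.2-fold within the libraries. Gna14 spread most among the alpha subunits present in every library, from 11.5 TPM in replicate 1 to 1.08 TPM in replicate 6. Gna15, which is known from blood cells, was listed at 2.36 TPM in replicate 2, 1.18 TPM in replicate 6 and 0 in the other 4 libraries. The leukocyte markers summed to 92.1 TPM in replicate 2 and to 273.8 TPM in replicate 6, but also to 236 TPM in replicate 5, where Gna15 was at 0, and their part in its level was not tested. Of the G12/13 family, which acts on the cytoskeleton, Gna13 was at 18.7 to 30.3 TPM and Gna12 at 4.34 to 21.2 TPM.

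In all, Gnat3 was higher than 11 of the other 15 alpha subunits and lower than 1 (adjusted p = 0.0375 for each, exact sign-flip test, n = 6, Benjamini-Hochberg over 30 member comparisons). The 11 include Gnat1 and Gnat2, which were at 0 throughout, so that their tests could give no other p. Without the 4 comparisons with members at 0 throughout, 9 alpha subunits were below Gnat3 and 1 above (adjusted p = 0.0387 over 26 comparisons by the same exact test). These 9 still include Gna15, Gnao1 and Gnaz, which reached at most 2.36, 1.82 and 0.94 TPM. Against Gnat3 at 81.8 TPM or more, their tests could hardly give another p. Across the order of means, the successive steps from Gnas to Gnai2, to Gnat3 and to Gna11 did not exceed 1 SD of the difference within libraries. The successive steps from Gna11 to Gnai3, to Gna13 and to Gnai1 each exceeded it with the same sign in 6 of 6 libraries. Summed by family, Gi/o took 51.5% ± 4.70 of the alpha subunit TPM, Gs 28.2% ± 3.25, Gq 16.1% ± 3.07 and G12/13 4.19% ± 0.54 (SD, n = 6). The Gi/o sum was above the Gs sum in every library by 1.34- to 2.35-fold, above the Gq sum by 2.04- to 4.01-fold and above the G12/13 sum by 11- to 15-fold (exact sign-flip test, n = 6, adjusted p = 0.03125 for each).

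**Figure D2:**
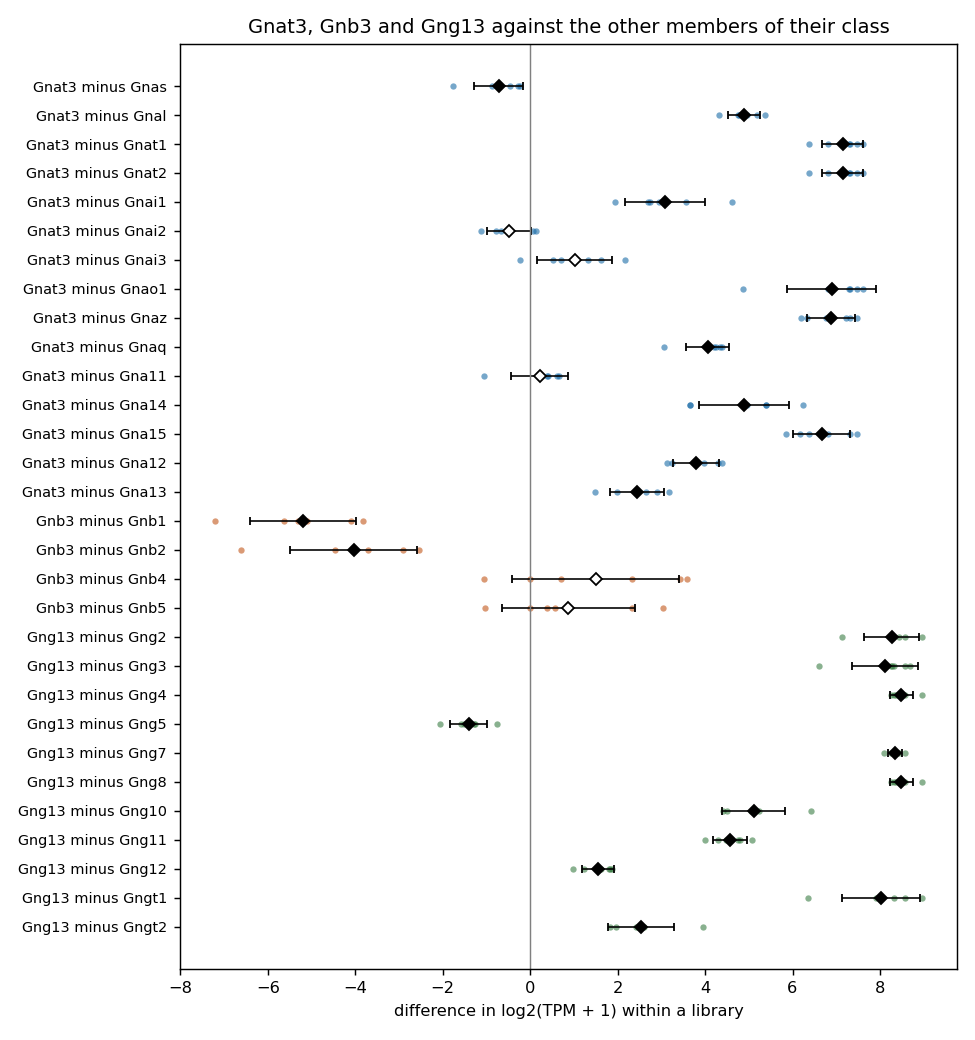
Difference in log2(TPM + 1) between Gnat3, Gnb3 or Gng13 and each other member of its class; dots are the 6 libraries, diamonds with bars the mean ± SD, and a filled diamond marks an adjusted p under 0.05. Of the 30 comparisons, 25 have the same sign in every library, among them 4 with members at 0 throughout (Gnat1, Gnat2, Gng4 and Gng8), and the 5 open diamonds are Gnai2, Gnai3, Gna11, Gnb4 and Gnb5. The 25 also include Gna15, Gnao1, Gnaz, Gng2, Gng3, Gng7 and Gngt1, at 3.05 TPM or less, whose signs could hardly differ.

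Gnb1 and Gnb2 made up the beta class, while Gnb3 was a minor part of it. Gnb1 (ENSMUSG00000029064.15; chr4:155491361-155559269, plus strand), the beta subunit of many tissues and of rod transducin, was at 229.7, 225, 230.3, 170.1, 147 and 150.5 TPM and took 66.4% ± 4.22 of the beta subunit TPM (SD, n = 6). Replicates 1 to 3 lay close together and above replicates 4 to 6. Gnb2, also widely found, was at 92.2, 101, 77.5, 63.9, 96.8 and 78.6 TPM, or 29.9% ± 5.69 of the class. Gnb1 exceeded Gnb2 in 6 of 6 libraries, by 1.52- to 2.97-fold.

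Gnb3 (ENSMUSG00000023439.11; chr6:124834240-124840275, minus strand), the beta subunit of cones and of gustducin in taste cells, was at 4.81, 3.59, 12.5, 3.99, 0 and 9.68 TPM and took 0% to 4.05% of the class. It was lower than Gnb1 and than Gnb2 in 6 of 6 libraries. On the log2(TPM + 1) scale, Gnb3 minus Gnb1 was -5.19 ± 1.21 and Gnb3 minus Gnb2 was -4.04 ± 1.45 (SD, n = 6, exact sign-flip test, adjusted p = 0.0375 for both). Its TPM came to at most 0.153 of that of Gnat3, in replicate 3, and to 0.0623 or less in the others. No other gene shared a 50-base window with Gnb3.

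Gnb4, a close relative of Gnb1 and Gnb2, was at 11.1, 1.82 and 0.13 TPM in replicates 1 to 3 and was listed at 0 in replicates 4 to 6. Gnb5, the divergent beta subunit of neurons and retina that pairs with R7 RGS proteins, was at 3.45, 8.46, 8.12, 0, 0 and 0.31 TPM. Both were highest in replicates 1 to 3 and lowest in replicates 4 to 6. Neither differed from Gnb3 beyond the spread (Gnb3 minus Gnb4, 1.49 ± 1.90, adjusted p = 0.201; Gnb3 minus Gnb5, 0.88 ± 1.52, adjusted p = 0.323; exact sign-flip test, n = 6).

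Among the gamma subunits, Gng5 and Gng13 were first and second in every library. Gng5 (ENSMUSG00000068523.12; chr3:146499807-146505572, plus strand), a widely found gamma subunit, was at 1265, 1085, 841, 1039, 804 and 774 TPM, the highest level of any member, and took 62.2% ± 4.91 of the gamma subunit TPM (SD, n = 6). Processed copies of it exist elsewhere in the genome, and 5.94% of its 50-base windows were found in another gene.

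Gng13 (ENSMUSG00000025739.13; chr17:25717171-25719406, plus strand), the gamma subunit of gustducin in taste cells, was at 303, 381, 498, 347, 332 and 319.7 TPM, or 23.8% ± 5.21 of the class. It was highest in replicate 3, the library in which Gnat3 was lowest, and lay within 303 to 381 TPM in the others. Gng13 was lower than Gng5 (Gng13 minus Gng5, -1.41 ± 0.43 on the log2(TPM + 1) scale, SD, n = 6, lower in 6 of 6 libraries, exact sign-flip test, adjusted p = 0.0375). It was higher than each of the other 10 gamma subunits in 6 of 6 libraries (adjusted p = 0.0375 for each by the same exact test). For Gng4 and Gng8, at 0 throughout, no other p was possible, which leaves 8 (adjusted p = 0.0387 by the same exact test). These 8 still include Gng2, Gng3, Gng7 and Gngt1, which reached at most 3.05 TPM, so that their tests could hardly give another p. Of the exonic bases of Gng13, 51.6% overlap Chtf18, a gene on the opposite strand at a mean of 3.29 TPM. The strand setting of the authors' counting is not given in the sources used here, and without strand the reads of this pair cannot be told apart there.

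The next in order was Gng12, at 91.0 to 162 TPM (median 124.0), 1.55 ± 0.37 below Gng13. Gngt2, known as the gamma subunit of cone transducin, was at 84.3, 61.5, 31.3, 64.4, 59.4 and 81.9 TPM, lowest in replicate 3 as Gnat3 was. Its rod counterpart Gngt1 ranged from 0 to 3.05 TPM. Part of Gngt2 overlaps Abi3 on the opposite strand (12.5% of exonic bases, mean 12.7 TPM). Of the less studied gamma subunits, Gng11 was at 9.35 to 19.9 TPM. Gng10 was at 3.45 to 14.3 TPM, with 72.0% of its exonic bases inside Gm20503, a gene model on the same strand that was not analysed here. Gng2, Gng3 and Gng7, which are prominent in brain, reached at most 1.3, 2.41 and 0.82 TPM and were at 0 in some libraries. Of the exonic bases of Gng3, 24.2% overlap Bscl2, a gene on the opposite strand at a mean of 42.8 TPM. Gng4 and Gng8 were listed at 0 throughout.

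**Figure D3:**
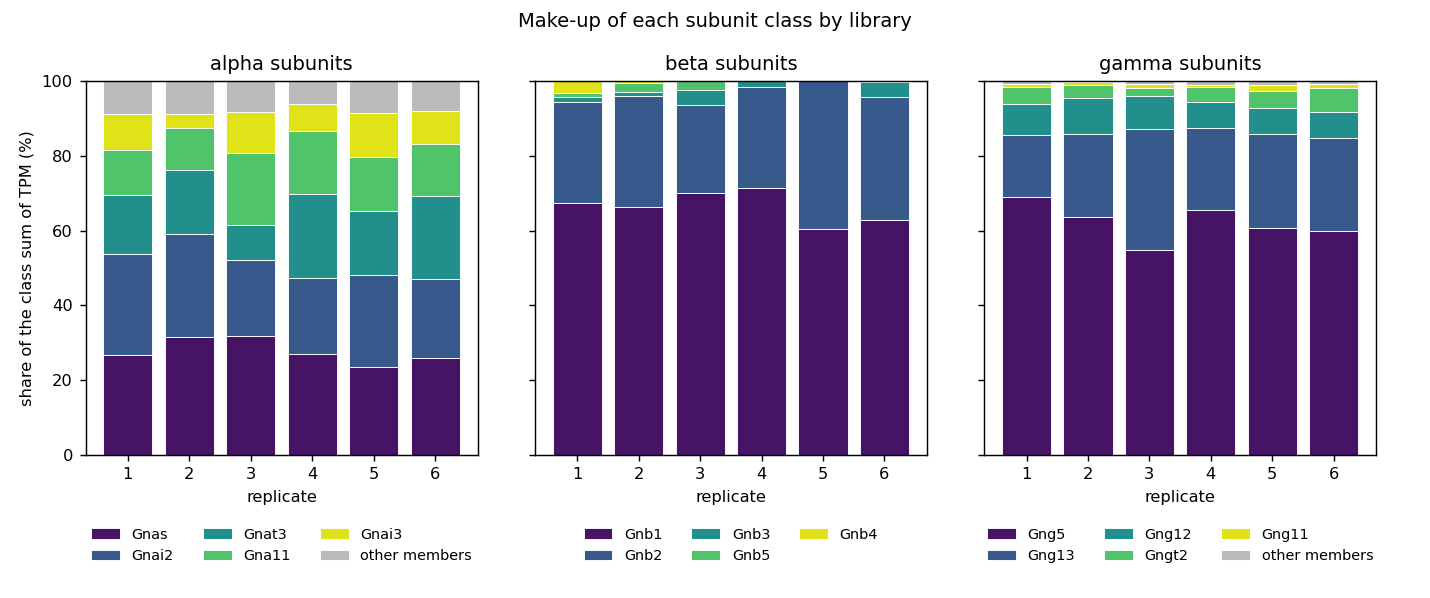
Share of each member in the summed TPM of its class, in percent, for each of the 6 libraries; grey holds the members not named in the key. Gnb1 takes 60.3% to 71.5% of the beta class and Gng5 54.7% to 68.9% of the gamma class, while no alpha subunit exceeds 31.7%.

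The 3 classes did not carry equal transcript levels. The beta subunits summed to 288 ± 53.0 TPM, the alpha subunits to 859 ± 179 TPM and the gamma subunits to 1546 ± 213 TPM (SD, n = 6). Within each library the alpha sum was 2.68- to 3.35-fold and the gamma sum 4.67- to 6.67-fold the beta sum. The gamma sum was above the alpha sum in 6 of 6 libraries, by a log2 difference (alpha minus gamma) of -0.86 ± 0.15. Each of the 3 pairs of classes differed beyond the spread between libraries (exact sign-flip test, n = 6, adjusted p = 0.03125 for each). This test takes in no bias that depends on the length of a gene, and such a bias was not tested. Set against Gnat3 alone, the summed beta subunit TPM was 1.34- to 4.02-fold and the summed gamma subunit TPM 8.31- to 18.8-fold its level. These are transcript levels, and protein amounts were not measured.

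To list which trimers with Gnat3 the transcripts allow, each of the 60 pairs of a beta and a gamma subunit was checked for Gnat3, the beta and the gamma all being at 1 TPM or more. In every library 12 pairs met this, namely Gnb1 or Gnb2 with Gng5, Gng10, Gng11, Gng12, Gng13 or Gngt2. In the pair of Gnb1 with Gng13, known from gustducin, the scarcer transcript (Gnb1) was at 147 to 230.3 TPM. The scarcer transcript was at 63.9 to 101 TPM for Gnb2 with Gng13 and at 0 to 12.5 TPM for Gnb3 with Gng13. The pair of Gnb3 with Gng13 met the level in 5 of 6 libraries, and failed in replicate 5, where Gnb3 was listed at 0. Within a library, the level of Gnb1 was 0.959- to 2.82-fold and that of Gng13 1.93- to 6.09-fold that of Gnat3. Between 16 pairs (replicate 5) and 30 pairs (replicates 1 and 2) met the level within a library, and 37 did so in at least 1. Which subunits assemble, and whether they share a cell, cannot be read from bulk transcripts, and some beta and gamma subunits are known not to pair.

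**Figure D4:**
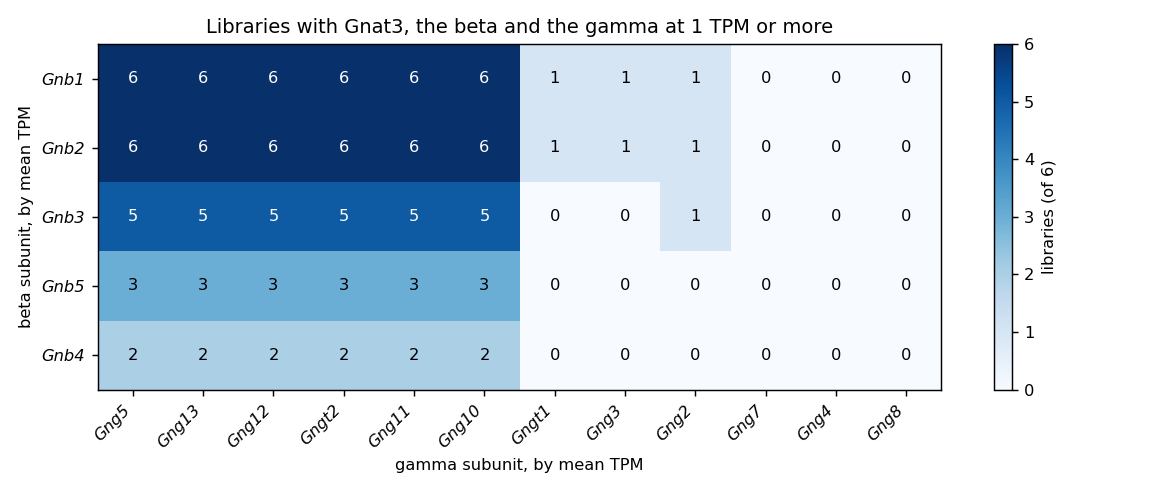
Number of the 6 libraries in which Gnat3, the beta subunit (rows) and the gamma subunit (columns) were all at 1 TPM or more, with both classes ordered by mean TPM. The 12 pairs at 6 libraries join Gnb1 or Gnb2 to 6 gamma subunits, and pairs with Gnb3 reach at most 5.

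No relation between the gustducin subunits across the libraries passed its test. For Gng13 with Gnat3, Pearson's r was -0.61 (exact permutation over 720 pairings, n = 6, adjusted p = 0.958 over 5 relations) and Spearman's rho -0.09 (p = 0.919 by the same exact permutation, adjusted p = 1). The r became 0.03 without replicates 2 and 3, the libraries farthest from the median of Gng13, and 0.49 without replicate 3 alone, so the relation rests on that library. Gnat3 gave r = -0.05 and rho = -0.03 with Gnb1, r = -0.07 and rho = -0.43 with Gnb3, and r = 0.44 and rho = 0.71 with the median of the tuft cell markers. Gng13 gave r = -0.02 and rho = 0.20 with these markers. Adjusted p by exact permutation was 0.958 to 0.986 for these r and 0.681 to 1 for these rho (n = 6). Each r was computed again without the 2 libraries farthest from the median of Gnb1, of Gnb3 or of the markers. It was then -0.39 for Gnat3 with Gnb1 (without replicates 5 and 6) and -0.77 for Gnat3 with Gnb3 (without replicates 3 and 5). Without replicates 1 and 2, Gnat3 gave -0.28 and Gng13 gave 0.47 with the tuft cell markers, both of the opposite sign to the value over all libraries.

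Replicates 1 to 3 and 4 to 6 differed in a transcript outside the family, Gm20594, which was at 15588 to 21283 TPM in the first 3 and 51805 to 56441 TPM in the last 3. Rn45s, at 230770 to 251446 TPM and 266590 to 325584 TPM, also separated these sets. So did several sums of subunits, given in the same order. The beta sum was at 329 to 341 TPM and 238 to 244 TPM. The alpha sum was at 882 to 1123 TPM and 654 to 796 TPM, the Gs sum at 268 to 360 TPM and 156 to 221 TPM, and the G12/13 sum at 33.8 to 51.5 TPM and 26.8 to 31.6 TPM. Of the 33 members, 9 lay higher in replicates 1 to 3 without overlap (Gnas, Gnai1, Gnai2, Gna13, Gna14, Gnb1, Gnb4, Gnb5 and Gng12) and 0 lay lower, against 6.97% and 2.12% of all genes of the table. The part of the split in these values was not tested. Of the 30 member comparisons, 28 had the same sign of the mean difference in both sets, the 4 with members at 0 throughout included. The exceptions were Gnat3 minus Gna11 (-0.01 ± 0.92 and 0.43 ± 0.22) and Gnb3 minus Gnb5 (-0.03 ± 0.88 and 1.78 ± 1.58, SD, n = 3 each), neither of which passed the test over all libraries. The 28 also include Gna15, Gnao1, Gnaz, Gng2, Gng3, Gng7 and Gngt1, which reached at most 3.05 TPM. Against Gnat3 at 81.8 TPM or more and Gng13 at 303 TPM or more, their signs could hardly differ. Given in the same order of sets, Gnat3 minus Gnas was -1.12 ± 0.55 and -0.32 ± 0.12. Gnat3 minus Gnai2 was -0.86 ± 0.24 and -0.11 ± 0.37. Gng13 minus Gng5 was -1.44 ± 0.65 and -1.38 ± 0.18. Sets of 3 cannot reach 0.05 in this test.

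Genes that act with the subunits were read from a list of 39 found in the table. Of these 39, 20 were at 1 TPM or more in every library, against 39.9% of all genes of the table. Of 4 phospholipases C beta, 2 were at this level in every library. Plcb2, the target of the gustducin dimer, was at 163 to 309 TPM and Plcb3, a target of Gq, at 75.03 to 143 TPM. Plcb1 and Plcb4 reached at most 0.77 and 1.23 TPM. Of 10 adenylyl cyclases, which make cyclic AMP, 4 were at this level in every library, led by Adcy6 at 32.7 to 62.5 TPM and Adcy5 at 25.2 to 57.1 TPM. Both belong to the group that Gi/o alpha subunits are known to inhibit.

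Of the chaperones that fold and assemble the subunits, Ric8b, which serves Gs alpha subunits, was at 5.64 to 15.5 TPM and Pdcl, which helps to form the beta and gamma dimer, at 21.7 to 39.2 TPM. The retinal relative Pdc was listed at 0, and Ric8a was not analysed here. None of the 6 R7 RGS proteins and anchors that partner Gnb5 was at 1 TPM in every library, the highest being Rgs11 at 0.53 to 11.4 TPM and Rgs9 at 0.17 to 3.63 TPM. The guanine nucleotide dissociation inhibitors, which hold free alpha subunits, were led by Gpsm2 at 6.42 to 41.0 TPM, with its highest value in replicate 3, and Gpsm1 at 4.33 to 8.80 TPM. Among the kinases that switch receptors off, Grk4 was at 27.7 to 63.5 TPM and Adrbk1 at 19.2 to 41.9 TPM, both lowest in replicate 3. All 6 enzymes of prenylation and CAAX processing were at 1 TPM or more in every library. Among them were Fnta, the alpha chain shared by both prenyl transferases, at 15.4 to 74.5 TPM and Rce1, the protease that trims the CAAX box, at 17.9 to 53.0 TPM.

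The starts of the subunit genes differed in CG dinucleotides, which are dense in the promoters of widely expressed genes. RefSeq (GRCm38.p6) promoters were found for 25 of the 33 members, with 32 starts. Those not found were Gnal, Gnat1, Gnai2, Gnaz, Gnb3, Gnb4, Gng11 and Gngt2. The bases before the start are given for Gnat3, for the first start of Gng13 and for the most abundant beta subunit as a contrast, each ending at the base before the GENCODE gene, with CG in capitals.
Gnat3, chr5:17962320-17962548, plus strand: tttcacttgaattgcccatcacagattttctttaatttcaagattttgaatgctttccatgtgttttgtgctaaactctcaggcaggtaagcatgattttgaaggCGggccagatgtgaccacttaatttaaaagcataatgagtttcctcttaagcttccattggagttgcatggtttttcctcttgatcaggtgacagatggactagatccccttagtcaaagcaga
Gng13, chr17:25716922-25717170, plus strand: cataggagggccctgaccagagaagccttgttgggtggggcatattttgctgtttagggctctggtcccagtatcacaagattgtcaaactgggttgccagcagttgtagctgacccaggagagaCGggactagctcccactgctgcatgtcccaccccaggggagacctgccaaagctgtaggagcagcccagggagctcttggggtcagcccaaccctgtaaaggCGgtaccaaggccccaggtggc
Gnb1, chr4:155491111-155491360, plus strand: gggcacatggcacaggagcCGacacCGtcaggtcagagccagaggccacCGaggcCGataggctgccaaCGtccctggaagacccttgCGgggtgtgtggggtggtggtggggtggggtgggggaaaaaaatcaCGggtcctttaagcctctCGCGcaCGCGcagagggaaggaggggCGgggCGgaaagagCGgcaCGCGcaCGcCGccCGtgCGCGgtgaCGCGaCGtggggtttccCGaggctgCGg
In the full 250 bases before the RefSeq start, Gnat3 and the first start of Gng13 each held 2 CG (for Gnat3, 1 within the printed stretch), Gnb1 held 26 and Gng5 held 44. Over all 32851 promoters of the table the median was 6, the quartiles were 2 and 16, and 62.2% held fewer than 10. A second RefSeq start of Gng13, inside the first transcript, held 25, and the TPM values do not tell which start was used. Taking the highest count of a gene's starts, 2 of the 15 matched members that were at 1 TPM or more in every library held fewer than 10 (Gnat3 and Gna14), and their median was 26. Of the other 10 matched members 7 held fewer than 10, and their median was 4. The values over all promoters count each start singly, so they are not a like measure for these groups. The highest count per gene was not summarised over all genes, so this contrast cannot be called particular to the members. The octamer ATTTGCAT, the motif of POU factors such as the tuft cell factor Pou2f3, was in 0 of the 32 member promoters and in 1.60% of all promoters, on either strand. TATAAA, likewise on either strand, was in 5 of the 32 and in 12.4% of all. The 5 belong to Gnas, Gnb5 and Gngt1 only, with several at Gnas, some of them in overlapping stretches.

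**Figure D5:**
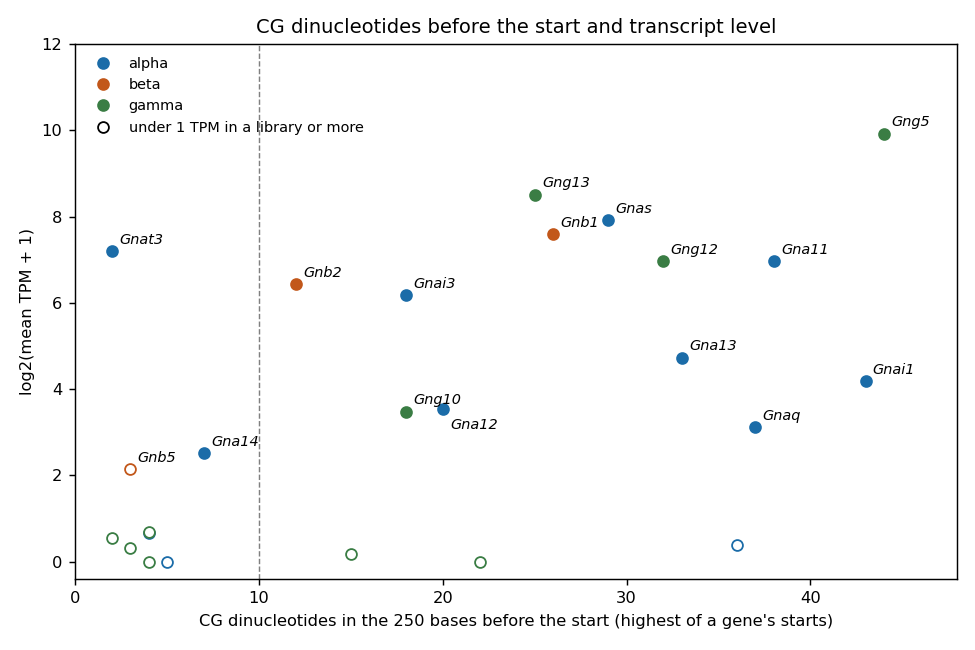
Highest number of CG dinucleotides in the 250 bases before a gene's RefSeq starts (horizontal) against log2(mean TPM + 1) over 6 libraries (vertical) for the 25 matched members; filled points were at 1 TPM or more in every library and the dashed line marks 10. Gnat3, with 2, is the most abundant member to the left of the line, and Gng13 stands at 25 by its second start.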

How the data were processed

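Ileal tuft cells of 6 mice, 1 group, were profiled by RNA sequencing. Reads were demultiplexed by the authors (Bcl2Fastq v2.17.1.14). They aligned paired-end reads to the UCSC mm10 transcriptome with Bowtie (version not given in the sources used here) and deposited TPM values from RSEM v1.2.3, which divides reads that fit several transcripts by estimated shares. DESeq2 is also named by the authors and was not used here.

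TPM was used as deposited, without a filter. Because TPM is no count, no count model, counting interval or detection limit was computed. Members were compared within libraries on log2(TPM + 1) by an exact sign-flip permutation test over 64 assignments, with Gnat3, Gnb3 and Gng13 as references, since gustducin of taste cells holds them. Adjustment by the Benjamini-Hochberg method covered 30 member comparisons and, separately, 6 comparisons of sums. Correlations used 720 pairings. All 33 members are named, and of the pathway list the chaperones and the 2 most abundant genes of each other group. Members and lists were chosen with earlier results of these data known. The promoter and coding-end sequences, the CG boundary of 10 and the motifs were chosen after values had been seen.

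Alternatives were pseudocounts of 0.1 and 0.01, setting values under 0.1 TPM to 0, median-of-ratios rescaling, rescaling without Rn45s and Gm20594, an exact Mann-Whitney test, other levels, other denominators, centring within replicates 1 to 3 and 4 to 6, and leaving out each library. Values within each of these sets of libraries, and counts without members at 0 in every library, were added after the data were seen. Gene positions, overlaps, 50-base windows and coding ends come from GENCODE M21 on GRCm38, matched by symbol, which is the assembly of mm10 but not the authors' gene models. The sign-flip and adjustment code was tested on simulated data. The tools were scipy 1.17.1, pandas 2.3.3, numpy 2.4.6 and matplotlib 3.10.9 under Python 3.11.15.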

Additional observations from a re-analysis of the deposited data

Results flagged for a closer look

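Within the 6 libraries, the value of a member was set apart when its gap to the nearest other library took a larger share of the whole range than Dixon's 95% critical value for 6 samples. Of 43 measures tested, 7 were set apart this way. Chance gives about 1 in 20 for normally spread values, a rate that does not hold for these 7, since a member at 0 in all libraries but 1 (Gnao1 and Gng7) has a ratio of 1 by construction. All 7 were members listed at or near 0 in most libraries, each with a single higher library: Gnb4 at 11.07 TPM in replicate 1, Gnao1 at 1.82 TPM and Gng7 at 0.82 TPM in replicate 3, Gng3 at 2.41 TPM and Gngt1 at 3.05 TPM in replicate 5, and Gnaz at 0.94 TPM and Gng2 at 1.3 TPM in replicate 6. No member at 1 TPM or more in every library was set apart. No cause was tested for these values.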

How the results depend on the processing

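The counts of member comparisons past 0.05 and the 6 differences of sums kept their direction and side of 0.05 under every alternative that was tested, and the class shares named above moved by less than 1 SD. The Mann-Whitney test added Gnai3 to the alpha subunits lower than Gnat3 (adjusted p = 0.0104, 12 in place of 11). Sign-flip tests without a library were not run, since 5 libraries cannot go below 0.0625. Without replicate 3, Gnat3 exceeded 13 rather than 11 alpha subunits in every library, and without replicate 5 the pairs with Gnat3 in every library numbered 18 in place of 12. A level of 10 TPM left 12 members and 8 pairs, and asking for 1 library only gave 37 pairs. Rescaling without Rn45s and Gm20594 moved the means of 17 members by more than 1 SD, that of Gnat3 to 213 TPM, without changing shares. Each of the 5 correlations turned sign under some setting, that of Gnat3 with the tuft cell markers when replicates 1 and 2 were both left out (-0.28, against 0.15 to 0.67 without 1 library). Gnat3 with Gnb1 turned to 0.28 when centred within sets and ranged from -0.32 to 0.62 without a library. Gnat3 with Gnb3 turned to 0.11 with a pseudocount of 0.1 and ranged from -0.85 (without replicate 5, exact permutation adjusted p = 0.0417, n = 5) to 0.71. Gnat3 with Gng13 ranged from -0.81 to 0.49, and Gng13 with the tuft cell markers from -0.27 to 0.37, without a library. The latter was -0.60 after median-of-ratios rescaling, -0.54 without Rn45s and Gm20594 and -0.59 when centred within sets, against -0.02 as reported, and Gnat3 with Gnb1 was -0.37 after median-of-ratios rescaling. The cause was not tested. The sign-flip test pairs members within a library and the Mann-Whitney test drops this pairing, while no block by replicate number between groups was possible because the libraries form 1 group. Depth is unknown, which limits statements on members listed at 0.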
